A study of Mus musculus with 2 samples.

Results

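The genes described here serve the display of intracellular peptides by major histocompatibility complex (MHC) class I molecules. They are the heavy chains H2-K1, H2-D1 and H2-M3, the light chain B2m, the peptide transporter and loading genes Tap1, Tap2 and Tapbp, and the immunoproteasome subunits Psmb8, Psmb9 and Psmb10. The members were selected by name with the knockdown-over-control ratios of these same arrays in view, so their ratios are given as a description with no test of their own. Of the 10 members, 9 had probes, 16 probes in 34 spots on each array, among 41174 probes in all, and the same 9 were among the 18068 genes with a usable signal. H2-D1 had no probe under that name, and no other probe was put in its place.

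The arrays compared C2C12 cells stably expressing a short hairpin RNA against Mybbp1a with C2C12 cells stably expressing a control hairpin. C2C12 is an established mouse myoblast line, labelled as C3H adult leg muscle. Both kinds of cells were mixed stable clones grown below confluence in medium with 20% heat-inactivated serum, and 0.5 µg of total RNA of each was labelled. On each of 2 arrays the knockdown RNA carried Cy5 and the control RNA Cy3, with no dye swap, so a dye bias left after normalization and the knockdown cannot be told apart, and neither can slide and replicate, since each slide held 1 array. The arrays are labelled as biological replicates, but nothing says that they came from separate infections or cultures, and every SD below covers the spread of these arrays alone, in which technical error may be the main part.

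Class I molecules hold short peptides at the cell surface, where cytotoxic T cells inspect them. The peptides are cut from cytosolic proteins by the proteasome, carried into the endoplasmic reticulum by the Tap1-Tap2 transporter and loaded with the help of tapasin, the product of Tapbp, onto a heavy chain paired with beta-2-microglobulin. Interferon gamma induces most of these genes in many cell types, muscle cells among them, and exchanges the constitutive catalytic subunits Psmb5, Psmb6 and Psmb7 for Psmb8, Psmb9 and Psmb10. Heavy chains are highly polymorphic: C3H mice carry the k haplotype of the H2 complex, whereas the C57BL/6 reference carries the b haplotype.

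The sequences on the array that the H2-K1 result turns on come first. The probe nearest the 3′ end of H2-K1, A_51_P198434, lies at chr17:33606564-33606623 on the minus strand of mm8, the build of the array files. It overlaps a probe named LOC56628, A_51_P190499, at chr17:33606572-33606626, which the array file describes as a class I antigen of the A.CA/J H-2K-f haplotype. Over 57 overlapping bases the probes share 49, or 86.0%, and no other probe on the array overlapped a member's probe over at least 30 bases at 80% identity or more. The first 30-base stretch with the most differences is shown for each, with the 4 differing bases in capitals.
H2-K1 A_51_P198434: tgaatGtAaccttgattgttatcatCTtga
LOC56628 A_51_P190499: tgaatAtGaccttgattgttatcatTGtga

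The other H2-K1 probes lie over 3 kb upstream along the gene and are shown in full, with no capitals. A_52_P50496 is at chr17:33609797-33609856, and A_52_P474242 is at chr17:33609987-33610233, a span of 247 bp for a 60-base probe.
H2-K1 A_52_P50496: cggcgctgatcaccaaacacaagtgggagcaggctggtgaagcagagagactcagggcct
H2-K1 A_52_P474242: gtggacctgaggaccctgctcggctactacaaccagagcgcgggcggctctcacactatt
Probes of the neighbouring immunoproteasome and transporter genes Psmb9, Tap1 and Psmb8, all higher in knockdown cells on both arrays, are shown next. Psmb9 was read at chr17:33792517-33792576 on the minus strand, Tap1 at chr17:33804121-33804180, and Psmb8 at chr17:33811038-33811097 and chr17:33811095-33811419, all on mm8.
Psmb8 A_51_P345366: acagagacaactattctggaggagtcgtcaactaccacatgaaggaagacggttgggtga
Psmb8 A_51_P345367: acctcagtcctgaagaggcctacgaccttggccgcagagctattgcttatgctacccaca
Psmb9 A_51_P369803: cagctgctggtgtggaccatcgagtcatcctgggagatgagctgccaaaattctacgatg
Tap1 A_51_P100327: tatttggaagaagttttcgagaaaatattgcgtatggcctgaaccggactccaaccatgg
Which exon or untranslated region each probe lies in was not analysed here, since no annotation of mm8 was used.

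Levels below are normalised log2 intensities of 1 channel, and ratios are log2 of knockdown over control on 1 array. A ratio of 1 is a 2-fold difference. A level compares the 4 channels of 1 probe, and never one probe with another. A gene with several probes is represented in counts by its brightest one.

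Of the 9 members measured, 7 had a ratio above 0 on both arrays, against 40.6% of all 18068 genes, and 1, Psmb10, was below 0 on both, against 29.4%. In 7 members both knockdown levels lay above both control levels, against 19.7% of all genes. Psmb8 alone was at least 2-fold higher on both arrays, a property of 0.631% of all genes, and no member was 2-fold lower on both, against 0.0553%. The median ratio over the members was 0.90 (0.37 on array 1 and 0.62 on array 2), and over all genes 0.03. Because the members had been selected on these ratios, nothing is read from the distance between these shares. In limma's moderated test over all genes 0 genes, or 0%, passed an adjusted p of 0.05, members included. The lowest adjusted p in limma was 0.176 with 1 residual degree of freedom, and at an unadjusted p under 0.05, limma counted 2414 genes higher and 1354 lower. No direction given here therefore rests on a passed test.

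**Figure D1:**
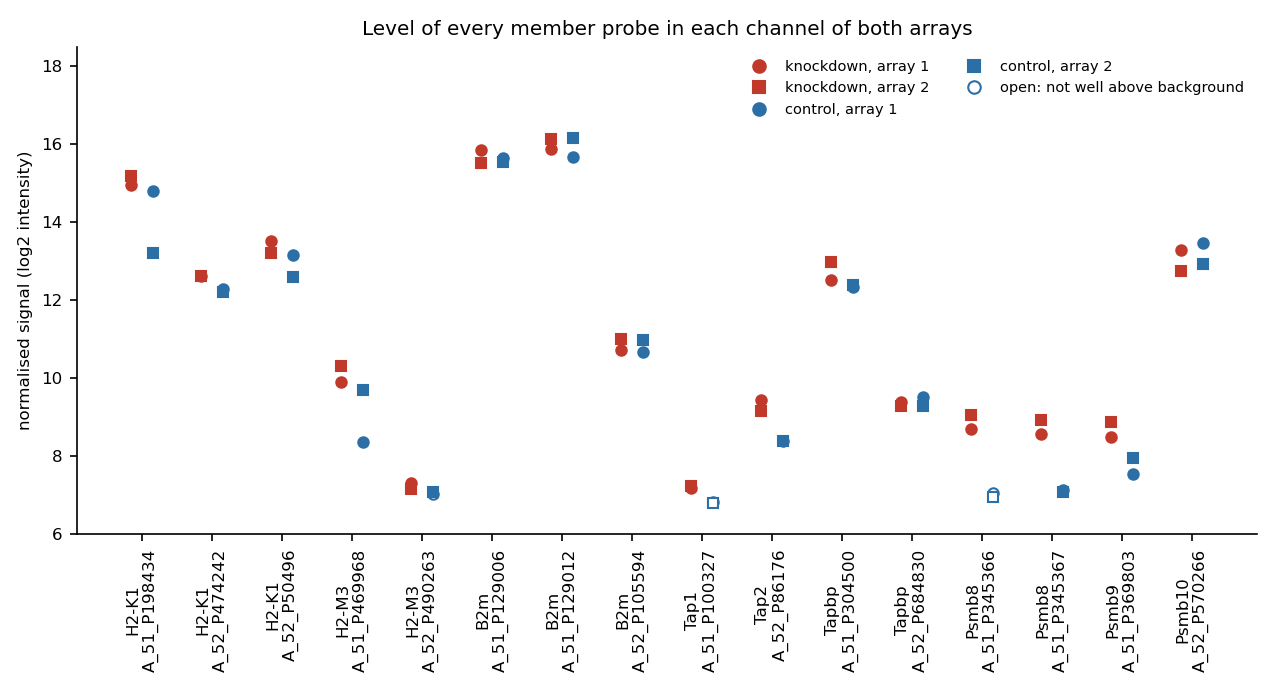
Normalised signal (log2 intensity) of each of the 16 member probes, with knockdown (red) left of control (blue), circles for array 1 and squares for array 2. Open symbols mark a control signal not well above background. Both knockdown points lie above both control points for every probe of Psmb8, Psmb9, Tap1, Tap2, H2-M3 and H2-K1, and for the brighter Tapbp probe. The 3′ probe of H2-K1 has 1 control point, on array 2, far below the other 3.

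The catalytic subunits of the immunoproteasome behaved unalike. Psmb8, the inducible subunit that takes the place of Psmb5, read 8.70 and 9.04 in knockdown cells, against 7.05 and 6.95 in control cells, on its brighter probe. The groups did not overlap, with ratios of 1.65 and 2.10 (mean 1.87 ± 0.31, SD, n = 2). On both arrays the control signal was not well above background. The mean, 3.67-fold higher in knockdown cells, therefore rests on control levels that are poorly known. Each control level lay above the dimmest signal well above background on its array, so no higher floor replaced it. The fold is also open to dye bias. The second Psmb8 probe, which overlaps the first by a few bases, had ratios of 1.46 and 1.83 (mean 1.64 ± 0.26, SD, n = 2), with the control well above background on array 2 only. In Feature Extraction's processed signals the Psmb8 ratio was 3.45 and not 1.87. With a background offset of 16 in place of 50 it was 2.34, and with no background correction 1.90. The size of the Psmb8 ratio therefore depends on the processing.

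Psmb9, the inducible counterpart of Psmb6, read 8.49 and 8.86 in knockdown cells, against 7.54 and 7.96 in control cells. All 4 signals were well above background and the groups did not overlap, with ratios of 0.95 and 0.91 (mean 0.93 ± 0.03, SD, n = 2), a 1.91-fold higher level in knockdown cells. Psmb10, the inducible counterpart of Psmb7, had no such difference. It read 13.28 and 12.75 in knockdown cells, against 13.47 and 12.92 in control cells, with ratios of -0.19 and -0.17 (mean -0.18 ± 0.01, SD, n = 2). The 2 arrays differed more from each other than the groups did on either. Psmb10 lies on chromosome 8 (mm8 chr8:108824906-108824965) and B2m on chromosome 2, whereas the other 7 members measured lie on chromosome 17. With median centring in place of loess, Psmb10 changed sign to 0.13, when the median of all genes was 0.21.

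The transporter subunits were both read as higher in knockdown cells on both arrays, and only Tap1 was dim. Tap2, well above background in all 4 channels, which with Tap1 forms the peptide pump of the endoplasmic reticulum, read 9.44 and 9.14 in knockdown cells, against 8.38 and 8.40 in control cells. The groups did not overlap, with ratios of 1.06 and 0.75 (mean 0.90 ± 0.22, SD, n = 2), or 1.87-fold higher. Tap1 read 7.19 and 7.23 in knockdown cells, against 6.82 and 6.78 in control cells, with the control signal not well above background on both. Its ratios were 0.37 and 0.45 (mean 0.41 ± 0.06, SD, n = 2), or 1.33-fold higher. In the processed signals its mean ratio was 1.31. Of the measured members, Tap1 and Psmb8 are those whose ratio rests most on how background is handled.

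Tapbp encodes tapasin, which bridges the transporter and the empty heavy chain. Its brighter probe read 12.51 and 12.98 in knockdown cells, against 12.33 and 12.40 in control cells, with ratios of 0.18 and 0.57 (mean 0.38 ± 0.28, SD, n = 2). The groups did not overlap on that probe. The other Tapbp probe gave -0.14 and -0.0020 (mean -0.07 ± 0.10, SD, n = 2), with overlapping groups, so the gene's probes disagreed.

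H2-K1, a classical heavy chain, was read by 3 probes that disagreed. The 3′ probe read 14.95 and 15.19 in knockdown cells, against 14.80 and 13.20 in control cells. Its ratio was 0.15 on array 1 and 1.99 on array 2 (mean 1.07 ± 1.30, SD, n = 2), so the SD exceeded the mean. The probe was printed in 10 spots, and their ratios ranged from 0.08 to 0.25 on array 1 and from 1.85 to 2.05 on array 2, so the gap between the arrays was many times the spread between spots of 1 array. Those spots share their labelled RNA and are not replicates.

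The gap lay mainly in the control channel. Before normalization the median spot signal of the knockdown RNA was 53933 on array 1 and 64036 on array 2, and that of the control RNA was 17676 on array 1 and 5706 on array 2. The LOC56628 probe behaved alike, with levels of 14.05 and 14.32 in knockdown cells, against 13.92 and 12.06 in control cells, and ratios of 0.13 and 2.26 (mean 1.19 ± 1.51, SD, n = 2). That probe is no member and was named after its values were seen. The upstream H2-K1 probes did not share the pattern. A_52_P50496 had ratios of 0.36 and 0.63 (mean 0.50 ± 0.19, SD, n = 2), and A_52_P474242 had 0.33 and 0.41 (mean 0.37 ± 0.06, SD, n = 2), with no overlap between the groups on either. With H2-K1 read by its brightest probe other than the 3′ one, a choice made after its values were seen, the median over the members was 0.50 in place of 0.90. Why the control signal of the 3′ probes differed between arrays was not tested.

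**Figure D2:**
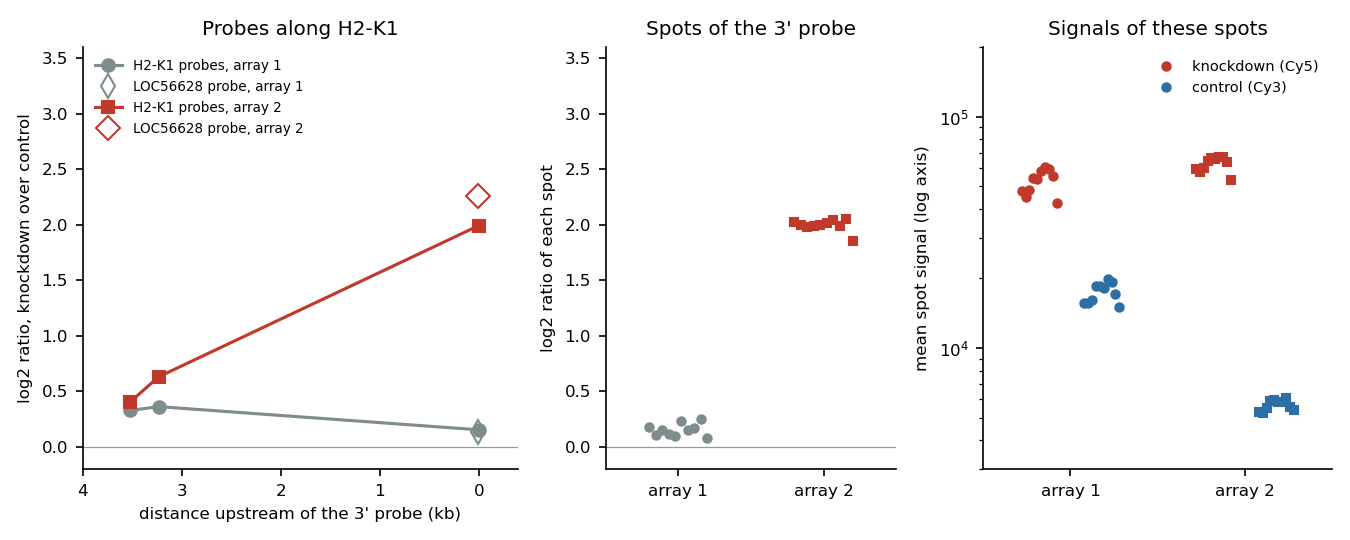
H2-K1 on the 2 arrays: left, log2 ratio of each H2-K1 probe and of the LOC56628 probe against distance upstream of the 3′ probe in kb (grey array 1, red array 2), middle, the ratio of each of the 10 spots of the 3′ probe, and right, the raw signals of those spots on a log axis, knockdown (red) left of control (blue). The arrays part most at the 3′ end, 0.15 against 1.99, and there the control signal is lower on array 2.

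H2-M3, a nonclassical heavy chain that presents N-formylated peptides, read 9.91 and 10.32 in knockdown cells, against 8.35 and 9.70 in control cells, on its brighter probe. The groups did not overlap, but the ratio was larger on array 1, 1.55, than on array 2, 0.62 (mean 1.09 ± 0.66, SD, n = 2). Its second probe was dim, with ratios of 0.29 and 0.08 (mean 0.18 ± 0.15, SD, n = 2) and a control signal well above background on array 2 only.

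B2m, the light chain common to all class I molecules, did not separate the groups. Its brightest probe read 15.89 and 16.14 in knockdown cells, against 15.68 and 16.16 in control cells, with ratios of 0.21 and -0.02 (mean 0.10 ± 0.16, SD, n = 2). The probe printed in 10 spots gave 0.22 and -0.04, and the third probe 0.04 and 0.02, so all 3 stayed within 0.22 of 0. With median centring in place of loess, the brightest B2m probe had a mean ratio of 0.59, when the median of all genes was 0.21.

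**Figure D3:**
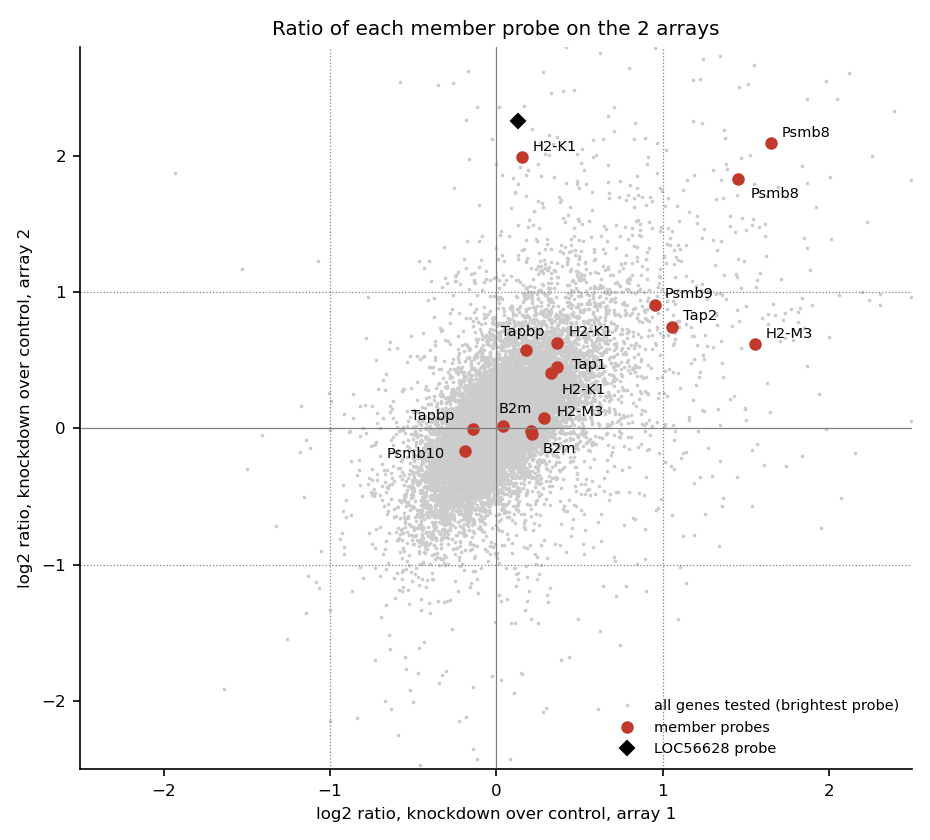
Log2 ratio of knockdown over control on array 1 (x axis) and array 2 (y axis) for the 16 member probes (red), the LOC56628 probe (black diamond) and all genes tested (grey), with dotted lines at a 2-fold difference. Psmb8 is beyond both lines at 1.65 and 2.10, Psmb9, Tap2 and H2-M3 are near or beyond 1 of them, and the 3′ H2-K1 probe and LOC56628 lie high on array 2 alone.

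The members were then set beside related genes from lists drawn up with earlier results of these data known. In none of these lists did a gene pass limma's threshold. Over all genes 40.6% were higher and 29.4% lower on both arrays, and 0.631% were at least 2-fold higher on both. These shares stand beside the counts of every list below, marker lists included, and nothing is read from their distance. Of 29 other class I and class I-like heavy chains, 14 were measured, with 11 higher and 1 lower on both arrays. Their median ratio was 0.43, against 0.03 for all genes. By array it was 0.31 and 0.57, beside 0.37 and 0.62 for the members. With no filter on dim probes the median of these other heavy chains was 0.18, beside 0.02 over all genes. Under median centring it was 0.78, beside 0.21 over all genes. Fcgrt, which encodes the neonatal Fc receptor heavy chain, had 1.15 and 1.82 (mean 1.49 ± 0.48, SD, n = 2) and was the one gene of that list at least 2-fold higher on both arrays. Cd1d1, which presents lipids, had the lowest ratios, -0.64 and -1.62 (mean -1.13 ± 0.69, SD, n = 2). Probes of the H2-Q, H2-T, H2-K2 and H2-D4 heavy chains, named after their values were seen, numbered 18, and the 12 with a log2 intensity of 11 or more ran from 0.25 to 0.41 on array 1 (median 0.33) and from 0.35 to 0.79 on array 2 (median 0.58). Both upstream H2-K1 probes lay within those ranges, and the 3′ one lay below them on array 1 and above them on array 2. The H2-K, H2-D, H2-Q and H2-T heavy chains are closely alike over parts of their sequence, so which transcripts each of these probes read is uncertain.

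The constitutive proteasome did not share the Psmb8 and Psmb9 difference. Psmb5 had ratios of -0.37 and -0.26, Psmb6 -0.09 and -0.30, and Psmb7 -0.11 and -0.38. Among 13 measured counterparts, assembly factors and activators, 3 were higher and 8 lower on both arrays, with a median of -0.17. The highest was Psme1, a subunit of the interferon-inducible proteasome activator, at 0.21 and 0.99 (mean 0.60 ± 0.55, SD, n = 2). Its partner subunit Psme2, named after its values were seen, had 0.27 and 0.93. Median centring turned that list's median to 0.21, beside a median of 0.21 over all genes.

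Of 16 measured genes for peptide trimming, folding and loading, 4 were higher and 8 lower on both arrays, with a median of -0.09. Canx, the chaperone calnexin, was highest at 0.15 and 0.13, and Blmh, a cytosolic peptidase, was lowest at -0.70 and -0.49. Under median centring that median was 0.32.

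Of 30 regulators of class I expression, 26 were measured, with 14 higher and 4 lower on both arrays and a median of 0.12. Ifnar2, a chain of the type I interferon receptor, was highest at 0.68 and 0.65, and Nfyc, a subunit of the CCAAT-binding factor NF-Y, was lowest at -0.32 and -0.44. Irf1, an interferon-induced activator of class I genes, had 0.08 and 0.65. Nlrc5, the class I transactivator, had no probe under that name. The MHC class II genes and their processing partners had a median of 0.15 over 6 of 12 genes, 4 higher and 2 lower on both arrays. H2-DMa, a class II peptide exchange factor, was highest at 0.40 and 0.39, and Cd74, the invariant chain, was lowest at -0.01 and -0.37.

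**Figure D4:**
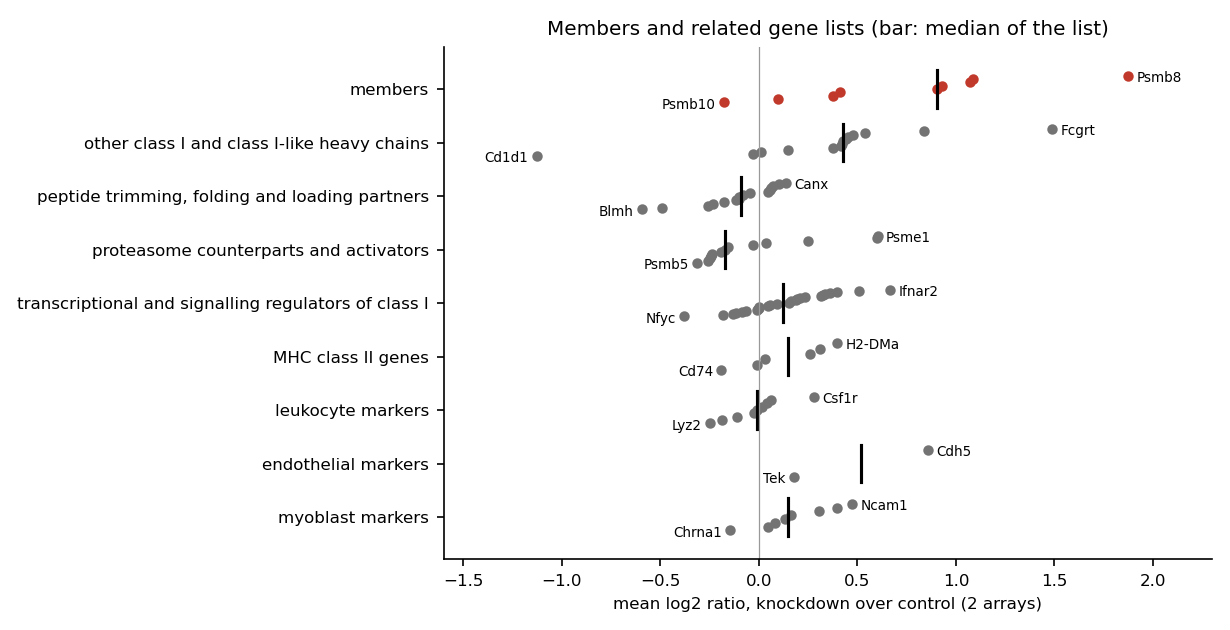
Mean log2 ratio of knockdown over control over the 2 arrays for each measured gene, by list, with the members in red and a black bar at each list's median. The members' median is 0.90, the other class I heavy chains' 0.43 and the proteasome counterparts' -0.17. By array, the members' median was 0.37 and 0.62, against 0.31 and 0.57 for the other class I heavy chains. Only the highest and lowest gene of each list is named.

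Marker lists of other cell types were also read beside the members. In bulk RNA, fewer cells of a type and less RNA per cell cannot be told apart. Of 14 leukocyte markers 9 were measured, 3 higher and 3 lower on both arrays, with summed levels on the linear scale of 5071 and 5618 in knockdown cells, against 5225 and 6218 in control cells. Such sums add signals of different probes, so the brightest probe weighs most. Here that was Cd14, named after its values were seen, with ratios of -0.11 and -0.27. Csf1r was highest at 0.27 and 0.29, and Lyz2 was lowest at 0.36 and -0.85. Ptprc, which defines leukocytes, was not well above background in any of the 4 channels. Of 6 endothelial markers 2, Cdh5 and Tek, were measured, with sums of 486 and 427 in knockdown cells, against 321 and 313 in control cells. Cdh5 had 1.03 and 0.68, with a control signal well above background on 1 array only, and Tek 0.13 and 0.22. Their median was 0.52. It was 0.18 when both channels had to be well above background, which left Cdh5 out, and 0.03 over all 6 with no filter. Kdr had 0.03 and -0.04 and Emcn -0.16 and -0.05. Pecam1 and Tie1 were not well above background in any of the 4 channels. The part of such cells in the members' ratios was not tested. All 8 myoblast markers were measured, Myod1 and Desmin (Des) among them, with a median of 0.15, Ncam1 highest at 0.23 and 0.72, and Chrna1 lowest at -0.06 and -0.23.

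Over both arrays, the median raw signal was 329 and 449 in the knockdown channel, against 159 and 184 in the control channel. From 65.6% to 79.7% of probes were well above background in the knockdown channel, against 64.9% to 72.9% in the control channel. Mybbp1a, the gene the hairpin targets, read 11.04 and 10.79 in knockdown cells, against 12.68 and 12.70 in control cells, with ratios of -1.64 and -1.91.

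Position along the chromosome was read next, since Tapbp, H2-K1, Psmb9, Tap1, Psmb8 and Tap2 lie within 289035 bp, chr17:33536605-33825639 on mm8. Besides these and LOC56628, 17 genes were measured in that interval, of which 10 were higher and 5 lower on both arrays, with a median of 0.12 and a range of -0.52 to 0.74. Over all genes 40.6% were higher and 29.4% lower on both arrays. None of the 17 was 2-fold different on both arrays, against 0.631% higher and 0.0553% lower by that much over all genes. The highest, Rps18, a ribosomal protein gene, had 0.75 and 0.72, and the lowest, Wdr46, had -0.41 and -0.64. Both were named after their values were seen. Of the other Rps18 probes, 1 had 0.78 and 0.75 and 1, far dimmer, had -0.08 and -0.41, so the gene's probes disagreed. H2-DMa and H2-DMb1, the measured non-members nearest to Psmb9, had means of 0.40 and 0.26.

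Promoter sequences, 250 bases before to 50 after the start of a gene, came from RefSeq on GRCm38.p6 and were found for 9 of the 10 members, Tap2 being the exception. They were searched on both strands for the interferon regulatory factor core AAANNGAAA, the NF-kappa-B motif, the interferon gamma activated site TTCNNNGAA, the cyclic AMP half-site TGACG, the CCAAT box and the GC box GGGCGG. The IRF core was found in 1 of 9 members, B2m, against 10.6% of 32851 promoters. NF-kappa-B matches were found in 4, B2m, H2-K1, H2-D1 and H2-M3, against 8.46%. TGACG was found in 6, against 20.8%, the CCAAT box in 7, against 37.4%, TTCNNNGAA in 2, Psmb8 and H2-M3, against 8.30%, and GGGCGG in 3, against 35.7%. No motif contains another, although neighbouring matches can share end bases. A match describes letters and not a bound site. Only these strings were counted, so a promoter without a match may still hold another form of an interferon response element.

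The promoters of B2m, which did not separate the groups, and of members higher in knockdown cells are shown, with matches to the IRF core, NF-kappa-B and TGACG in capitals on either strand. The B2m window is chr2:122147437-122147736 (+), H2-K1 chr17:34000298-34000597 (-), Psmb8 chr17:34197945-34198244 (+), and Psmb9 chr17:34187281-34187580 (-), all on GRCm38.p6.
B2m promoter: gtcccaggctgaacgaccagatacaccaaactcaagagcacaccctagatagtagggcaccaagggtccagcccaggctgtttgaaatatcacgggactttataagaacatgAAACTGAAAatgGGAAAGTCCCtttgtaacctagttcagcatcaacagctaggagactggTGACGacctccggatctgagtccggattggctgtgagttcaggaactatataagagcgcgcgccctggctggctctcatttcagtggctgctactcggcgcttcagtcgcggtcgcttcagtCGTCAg
H2-K1 promoter: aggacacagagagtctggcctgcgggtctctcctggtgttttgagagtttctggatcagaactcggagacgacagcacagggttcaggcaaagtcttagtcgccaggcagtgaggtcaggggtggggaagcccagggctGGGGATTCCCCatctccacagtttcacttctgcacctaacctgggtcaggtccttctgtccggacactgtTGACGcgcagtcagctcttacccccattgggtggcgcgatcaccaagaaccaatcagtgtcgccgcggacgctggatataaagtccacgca
Psmb8 promoter: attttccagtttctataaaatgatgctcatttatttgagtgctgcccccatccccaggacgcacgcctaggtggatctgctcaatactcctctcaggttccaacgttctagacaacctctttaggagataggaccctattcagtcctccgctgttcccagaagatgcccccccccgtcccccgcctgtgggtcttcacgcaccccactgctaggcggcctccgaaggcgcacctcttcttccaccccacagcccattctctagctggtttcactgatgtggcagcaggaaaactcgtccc
Psmb9 promoter: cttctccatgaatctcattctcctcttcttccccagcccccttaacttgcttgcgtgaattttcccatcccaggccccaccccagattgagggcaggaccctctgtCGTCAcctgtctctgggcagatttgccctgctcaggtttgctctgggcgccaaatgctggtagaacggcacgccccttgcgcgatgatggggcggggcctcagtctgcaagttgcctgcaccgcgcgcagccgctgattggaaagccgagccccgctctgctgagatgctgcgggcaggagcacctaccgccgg
The Psmb9 window overlaps that of Tap1 by 275 bp on the opposite strand, so both genes start from 1 shared stretch. Their ratios, 0.93 and 0.41 on average, were both above 0 on both arrays. The Psmb8 window held no capital match, but it held 1 TTCNNNGAA match, a motif not put in capitals. The B2m window held the IRF core, an NF-kappa-B match and TGACG in both orientations, but no TTCNNNGAA match.

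**Figure D5:**
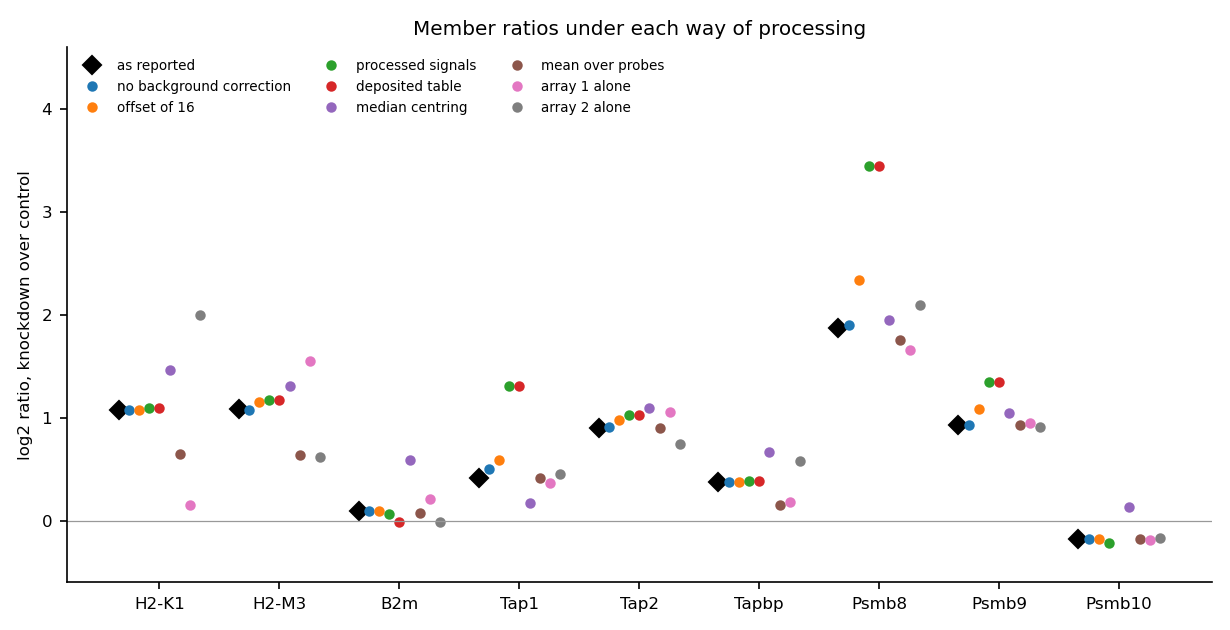
Log2 ratio of knockdown over control of each measured member under the 9 ways of processing in the legend, each array by itself included, with black diamonds for the values reported. Psmb8 is the highest point in each of those 9, although on array 2 by itself it is 2.10 beside 1.99 for H2-K1, and Psmb10 crosses 0 under median centring. The stricter filter that needs both channels well above background, which leaves Psmb8 out, is not plotted.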

How the data were processed

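Total RNA of knockdown (Cy5) and control (Cy3) C2C12 cells was hybridised to 2 Agilent two-colour arrays, read with Agilent Feature Extraction 9.5.3.1 per the submitters' processing notes. Spot mean and background intensity were deposited without background subtraction, and detection flags of 0 or 1, processed intensity and a log10 ratio of Cy5 over Cy3 were deposited beside them, per the file headers. In the deposited table, values were log2 ratios of knockdown over control, found by setting it against the log10 ratio: within 0.001 for 99.4% of compared probes, with a median of 0 on both arrays, and blank for 1165 and 2004 probes. How it was centred and why values were blank stays unknown.

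Here signals were corrected with normexp (offset 50) and loess-normalized within arrays (span 0.3), using R 4.3.3 and limma 3.58.1. Loess gave weight 0 to the 1639 control spots, which were then dropped, as were 154 and 237 outlier spots. Probes with either channel well above background, on each of the 2 arrays, were tested with lmFit and eBayes, 1 brightest probe per gene, and p-values were Benjamini-Hochberg adjusted. Of the probes, 23362 were named by accession in the RefSeq table of GRCm38.p6, 6731 held a current symbol, 2907 matched a synonym, 8158 kept the file's name, and the 16 member probes were matched by name. The limma step was tested on simulated data. The number of arrays limits the precision.

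Members and gene lists were chosen with earlier results of these data known. Named genes were all members, list genes at least 2-fold different one way on both arrays, the highest and lowest of each list, Psmb5, Psmb6, Psmb7, Nlrc5, Irf1 and Mybbp1a. One further gene of the rule is not reported here. Exceptions are marked as named after their values were seen, apart from Myod1, Des, Ptprc, Pecam1, Tie1, Kdr, Emcn, H2-DMb1 and the probes listed by family. Alternatives were background handling, offset, median centring, the deposited table, probe filters, the mean over probes and each array by itself.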

Additional observations from a re-analysis of the deposited data

How the results depend on the processing

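Dyes were not swapped, 2 arrays leave limma 1 residual degree of freedom, and Psmb8 and Tap1 rest on control signals near background. Median centring in place of loess gave limma 3095 genes past its threshold (3037 higher and 58 lower), against 0, and moved the median of all genes to 0.21 from 0.03 and the share of genes higher on both arrays to 65.5% from 40.6%. The number of members at least 2-fold higher on both arrays, 1 as reported, was 3 with processed signals and with the deposited table, 2 with an offset of 16 and with median centring, and 0 when both channels had to be well above background, which removed Psmb8 and Tap1. On single arrays it was 2 to 3. The members' median, 0.90, was 1.09 with processed signals, 1.13 in the deposited table, which held 8 members, 0.63 as the mean over probes, 0.50 with H2-K1 read without its 3′ probe (chosen after the data were seen), and 0.37 to 0.62 on single arrays. Median centring put 9 members above 0 on both arrays in place of 7, beside the 65.5% of all genes. Several values changed sign. Under median centring Psmb10 was 0.13, trimming and loading genes 0.32, proteasome counterparts 0.21, class II genes -0.044 and leukocyte markers 0.10. Leukocyte markers were 0.0038 with both channels above background, and -0.020 to 0.0040 on single arrays. B2m was -0.016 in the deposited table and -0.016 to 0.21 on single arrays. The cause was not tested, beyond the fewer probes kept. Over all alternatives Psmb8 ran from 1.65 to 3.45, Tap1 from 0.18 to 1.31, Psmb9 from 0.91 to 1.34, Tap2 from 0.75 to 1.09, H2-M3 from 0.62 to 1.55, H2-K1 from 0.15 to 1.99 and Tapbp from 0.15 to 0.66. B2m ran from -0.016 to 0.59, its highest value being that under median centring, and Psmb10 from -0.22 to 0.13. A count of limma calls could not be had from 1 array, which leaves no residual degree of freedom. Each array holds both groups, so the fit on its ratios is already paired within arrays.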
